A study of Mus musculus with 9 samples.

Results

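Tfpi, F3, Thbd, Procr and Plat encode proteins of the vessel wall that start, restrain or undo blood clotting. The 5 genes were represented by 6 of the 12488 probe sets on the array, 1 for each gene except Thbd, which had 2. They were chosen around Tfpi, whose level in the ventricles of mice with constitutively active phosphoinositide 3-kinase (PI3K) was about 0.47 times that of control mice, and the other 4 genes were added for their function. All 6 probe sets were bright enough to be tested, meaning that they lay above a fixed intensity floor (35.34 units) on at least 3 of the 9 arrays.

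RNA from ventricles of 9 mice was measured on 9 one-colour arrays, 1 for each animal. The caPI3K group (3 mice) was transgenic for a constitutively active PI3K and the dnPI3K group (3 mice) for a dominant negative form, and the NTG group (3 mice) carried no transgene and served as the control of both. PI3K makes the membrane lipid through which insulin and insulin-like growth factor activate the kinase Akt. Per the labels, caPI3K hearts exceeded wild type hearts of the same litters by 20% and dnPI3K hearts fell short of them by 17%. The labels name no promoter for either transgene and no strain, age or sex.

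Clotting begins when tissue factor, the product of F3, binds factor VIIa at the surface of a cell and activates factor X. Tissue factor pathway inhibitor, the product of Tfpi, is made largely by endothelium and blocks factor Xa and then the complex of tissue factor with factor VIIa. Thrombomodulin (Thbd) binds thrombin on endothelial cells and turns it towards the activation of protein C, which the endothelial protein C receptor (Procr) presents. Tissue plasminogen activator (Plat) converts plasminogen to plasmin, the protease that dissolves fibrin. Tfpi, Thbd and Procr all lie on mouse chromosome 2, F3 on chromosome 3 and Plat on chromosome 8.

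The windows around the annotated starts of Tfpi are printed because Tfpi is the member whose level differed between groups, and that of F3 because tissue factor is the target of Tfpi. Each runs from 250 bases before to 50 after the start, 5′ to 3′ on the gene's own strand (RefSeq, GRCm38.p6). Tfpi has 2 such windows, at chr2:84476710-84477009 and chr2:84474125-84474424, both on the minus strand, and F3 has 1, at chr3:121723287-121723586 on the plus strand. Capitals mark matches to 6 short motifs searched on both strands.
Tfpi, first window: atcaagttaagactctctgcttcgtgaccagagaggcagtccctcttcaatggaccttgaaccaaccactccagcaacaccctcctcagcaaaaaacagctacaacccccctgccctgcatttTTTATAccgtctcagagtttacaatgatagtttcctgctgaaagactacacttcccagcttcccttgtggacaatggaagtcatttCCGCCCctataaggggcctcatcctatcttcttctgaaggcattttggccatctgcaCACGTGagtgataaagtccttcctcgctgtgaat
Tfpi, second window: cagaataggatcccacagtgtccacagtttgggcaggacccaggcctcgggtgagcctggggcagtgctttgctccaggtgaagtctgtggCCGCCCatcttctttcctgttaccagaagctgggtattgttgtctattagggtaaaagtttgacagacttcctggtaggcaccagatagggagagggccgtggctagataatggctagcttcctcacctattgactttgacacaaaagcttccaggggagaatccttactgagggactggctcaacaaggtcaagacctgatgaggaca
F3: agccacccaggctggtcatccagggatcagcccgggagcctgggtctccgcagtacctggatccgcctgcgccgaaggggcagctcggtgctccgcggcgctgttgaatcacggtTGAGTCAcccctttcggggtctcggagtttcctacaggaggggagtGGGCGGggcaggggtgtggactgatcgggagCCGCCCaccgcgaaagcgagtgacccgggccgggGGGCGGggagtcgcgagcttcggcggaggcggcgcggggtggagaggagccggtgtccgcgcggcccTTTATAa

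The motifs were GTAAACA (forkhead factors, the class that includes FoxO), CACGTG (E-box), TGAGTCA (AP-1), GGGCGG (Sp1), CCAAT and TATAAA, and none of the matches printed overlapped. The first Tfpi window held 1 CACGTG, 1 GGGCGG and 1 TATAAA match, and the second held 1 GGGCGG match. The F3 window held 3 GGGCGG matches, 1 TGAGTCA and 1 TATAAA. Matches printed as CCGCCC or TTTATA are on the opposite strand. Neither GTAAACA nor CCAAT was found in these 3 windows. Of 32851 windows of the same length over all genes, 7.15% held CACGTG, 35.7% GGGCGG, 5.20% TGAGTCA, 13.6% TATAAA, 3.65% GTAAACA and 37.4% CCAAT. The guanine and cytosine content was 48.0% and 52.3% in the Tfpi windows and 70.3% in that of F3. A sequence was at hand for 3 of the 5 members, the third being Procr, whose window (58.3% guanine and cytosine) held 1 TGAGTCA match on the opposite strand.

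Tfpi (probe set 98514_at) was low on every caPI3K array and on no other. Its normalized intensity was 432.3, 446.8 and 501.6 in caPI3K, 894.6, 851.4 and 1224 in NTG, and 1036, 1067 and 1038 in dnPI3K. The brightest caPI3K array thus lay below the dimmest array of both other groups, while the NTG and dnPI3K arrays overlapped. Group means were 460.2 ± 36.5 (SD, n = 3) in caPI3K, 990.2 ± 204 in NTG and 1047 ± 17.6 in dnPI3K. The order of the groups was caPI3K, then NTG and dnPI3K, and the last pair did not differ beyond its spread. The SD was 1.68% of the mean in dnPI3K, 7.93% in caPI3K and 20.6% in NTG, where replicate 3 stood above the other arrays.

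**Figure D1:**
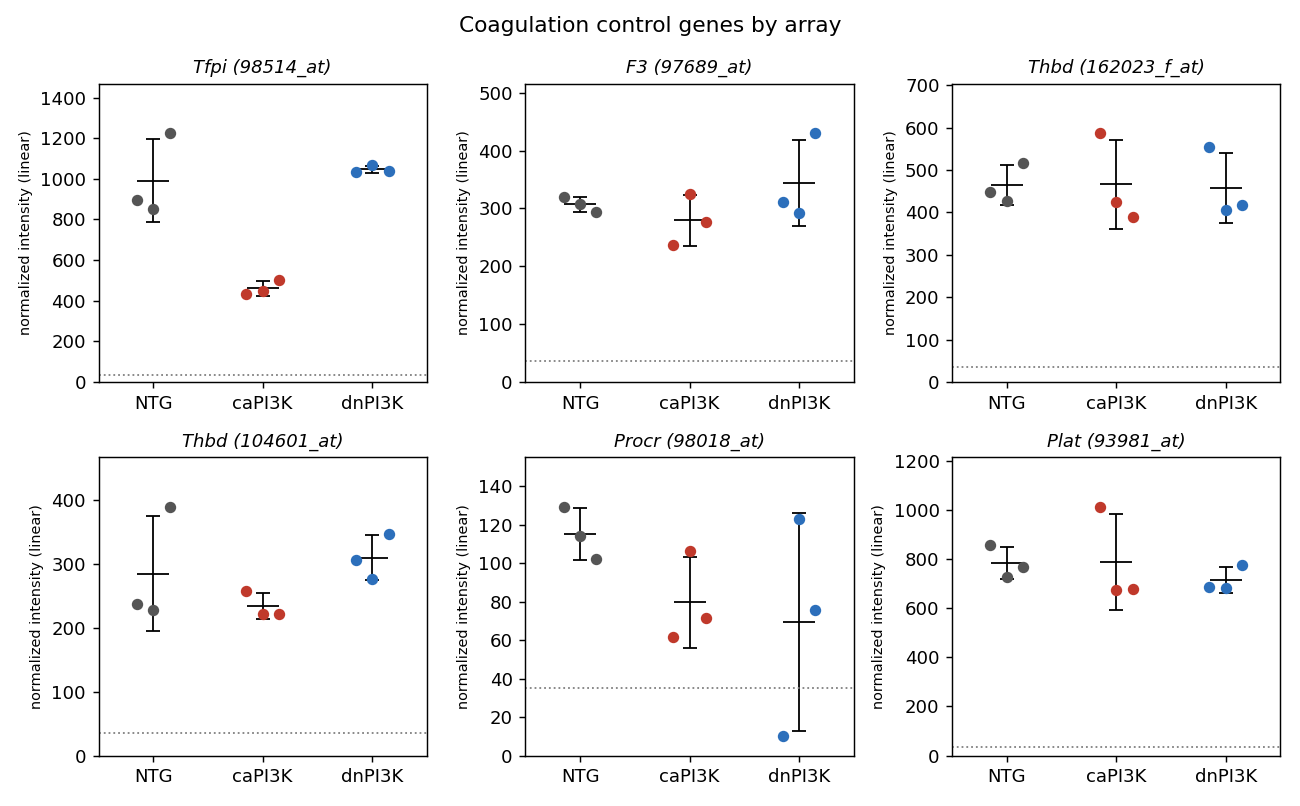
Normalized intensity (linear scale) of the 6 probe sets on each of the 9 arrays, grouped as NTG, caPI3K and dnPI3K. Points are arrays, black bars the mean ± SD (n = 3) and the dotted line the floor of 35.34. The caPI3K points of Tfpi (432.3 to 501.6) lie apart from all others. The 3 groups overlap in the panels of F3, Procr, Plat and Thbd probe set 162023_f_at.

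The difference of Tfpi between caPI3K and NTG was -1.09 ± 0.146 (log2 fold change ± moderated standard error, SE), or 0.470-fold. This contrast chose the gene, so the value is a description and no test is given for it or for the other members in the same contrast. The choice of Tfpi likewise fixed the count of members past an adjusted p of 0.05 in limma's moderated test (1 of 6, Tfpi itself, beside 0.0845% of the 10645 probe sets tested), and nothing is read from it. That count fell to 0 under 11 of 20 alternatives. With the animals numbered from 2800 alone (2 arrays a group) the difference was -0.99, and with those numbered from 3100 (1 a group) it was -1.29. Leaving out each of the 9 arrays in turn gave -1.19 to -0.93, the smallest without NTG replicate 3. Against dnPI3K the difference of Tfpi was -1.19 ± 0.146, or 0.439-fold, which uses the same caPI3K arrays and is likewise a description.

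Between dnPI3K and NTG, Tfpi changed by 0.10 ± 0.146 and did not pass the test (limma, adjusted p = 0.811). The 95% interval of the fold change was 0.857 to 1.34, a range that does not reach the size of change seen in caPI3K in either direction. The interval reflects the spread between arrays only. It does not cover any difference in handling of the dnPI3K animals, whose number series are not those of NTG. The NTG arrays of this comparison are those that took part in the choice of Tfpi. None of the 6 member probe sets passed here (limma), beside 2.18% of all probe sets tested, and 0 of 6 had an unadjusted p under 0.05, beside 14.8%. The probe set of Tfpi is annotated with 1 messenger RNA record, and which of the spliced forms of Tfpi it reads was not tested.

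**Figure D2:**
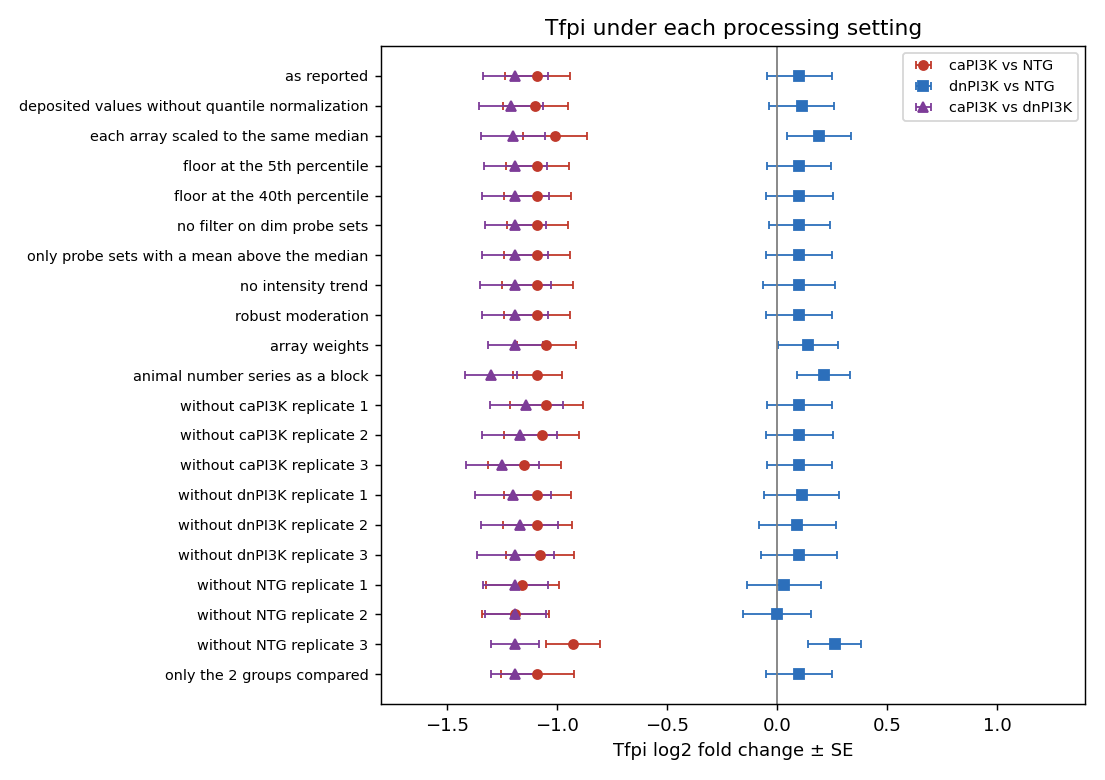
Log2 fold change of Tfpi (± SE) in the 3 comparisons under the reported setting and 20 alternatives, which include leaving out each array. The difference of caPI3K from NTG stays between -1.19 and -0.93, and that of dnPI3K from NTG between 0.00 and 0.26.

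Tfpi is mainly an endothelial transcript, and in a whole ventricle fewer cells of a type and less RNA per cell cannot be told apart. The summed level of endothelial markers overlapped between caPI3K and NTG. Of 21 such genes 15 were tested. Of these, 0 passed in any of the 3 comparisons, beside 0.107% of all genes in caPI3K against NTG, 2.22% in dnPI3K against NTG and 3.46% in caPI3K against dnPI3K, and at such shares a count of 0 among 15 shows little. In caPI3K against NTG 6 of the 15 lay above 0 and 9 below (median log2 fold change -0.01), and in dnPI3K against NTG 13 lay above and 2 below (median 0.19). In caPI3K against dnPI3K 5 lay above and 10 below (median -0.07). Their summed intensity was 15794 to 18876 in caPI3K, 15962 to 18517 in NTG and 18167 to 18861 in dnPI3K, so that the range of caPI3K enclosed that of NTG. Endoglin (Eng) read 4713 ± 751 in caPI3K, 5379 ± 486 in NTG and 5425 ± 517 in dnPI3K (SD, n = 3 each). VE-cadherin (Cdh5), the adhesion protein of endothelial junctions, read 1788 ± 336, 1605 ± 342 and 1531 ± 184 in the same order. Esam, Egfl7, Robo4, Erg and Ecscr had no probe set in the annotation used, and Tal1 did not rise above the floor often enough to be tested.

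The summed level of smooth muscle and pericyte markers was lowest in caPI3K, as was Tfpi. The summed intensity of the 8 tested genes of that list was 5081 to 5759 in caPI3K, 6181 to 6524 in NTG and 7019 to 8079 in dnPI3K, with no overlap between groups. Among single probe sets, 12.1% did not overlap between caPI3K and NTG, and 19.1% between dnPI3K and NTG. Rgs5, 1 of the 8, read 624.8 ± 447 in NTG and 392.5 ± 59.4 in caPI3K (SD, n = 3 each), with NTG replicate 3 far the highest. That spread is as large as the gap between the caPI3K and NTG sums, so little is read from the gap. In caPI3K against NTG 2 of the 8 genes lay above 0 and 6 below, and in dnPI3K against NTG 6 lay above and 2 below. In caPI3K against dnPI3K 1 lay above and 7 below. Smooth muscle alpha-actin (Acta2) rose from 1272 ± 161 in NTG to 2555 ± 468 in dnPI3K (limma, adjusted p = 0.0176), where Tfpi did not pass. The mean sum was 6341 in NTG and 7613 in dnPI3K, a rise about as large as that of Acta2 alone. Between caPI3K and dnPI3K 2 of the 8 passed, both lower in caPI3K, beside 3.46% of all genes. They were Acta2 at -1.56 ± 0.175 (limma, adjusted p = 0.00113) and the smooth muscle myosin gene Myh11 at -1.20 ± 0.261 (limma, adjusted p = 0.0334). None of the 8 passed between caPI3K and NTG, with a median log2 fold change of -0.39 beside 0.00 over all 7484 genes. Their part in the difference of Tfpi was not tested.

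**Figure D3:**
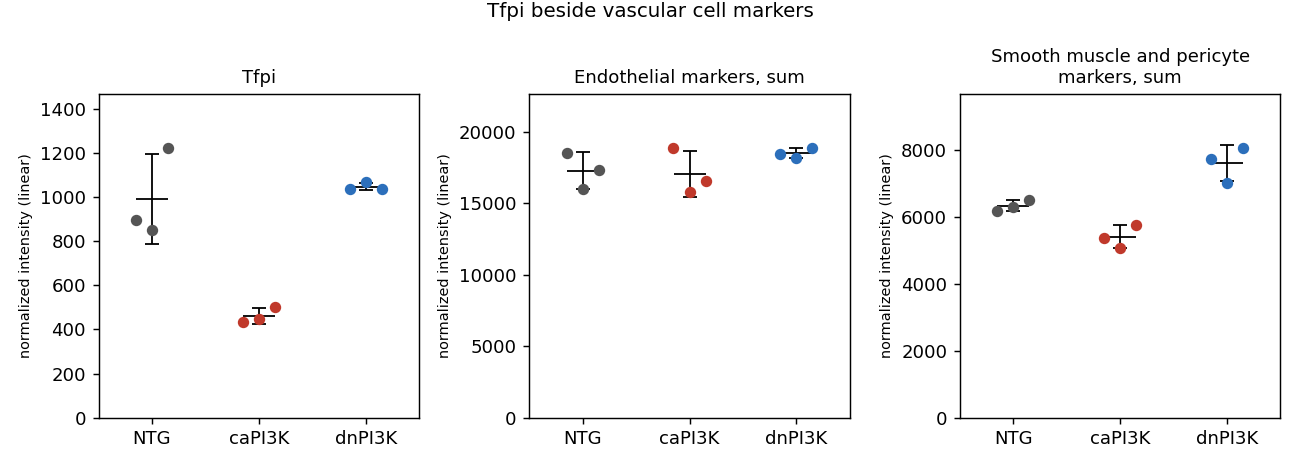
Normalized intensity of Tfpi on each array beside the summed intensity of 15 endothelial and of 8 smooth muscle and pericyte marker genes (all axes linear and from 0). Points are arrays and black bars the mean ± SD (n = 3). The endothelial sums overlap between groups and the smooth muscle sums do not.

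F3, the gene for tissue factor, had overlapping levels in the 3 groups. Its probe set 97689_at read 319.7, 307.0 and 294.5 in NTG, 236.4, 324.2 and 276.9 in caPI3K, and 310.3, 292.9 and 429.8 in dnPI3K. The groups overlapped in every pair, and dnPI3K replicate 3 was the highest array. The difference of caPI3K from NTG was -0.15 ± 0.206 on the log2 scale. Between dnPI3K and NTG it was 0.14 ± 0.206 (limma, adjusted p = 0.806), with a 95% interval of 0.806 to 1.52 for the fold change, and without dnPI3K replicate 3 it was -0.03. Between caPI3K and dnPI3K it was -0.29 ± 0.206 (limma, adjusted p = 0.546, fold interval 0.595 to 1.12).

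Thrombomodulin was read by a pair of probe sets that did not follow each other closely (Pearson r = 0.38 over the 9 arrays, a description). Probe set 104601_at read 238.0, 228.2 and 389.4 in NTG, 258.1, 222.7 and 222.3 in caPI3K, and 306.8, 276.3 and 347.7 in dnPI3K. All dnPI3K arrays of this probe set lay above all caPI3K arrays, and NTG replicate 3, also the highest array for Tfpi within NTG, was the highest of the 9. The difference between caPI3K and dnPI3K was -0.40 ± 0.238 and did not pass (limma, adjusted p = 0.452, fold interval 0.526 to 1.09). In that comparison the groups of 2 of the 6 member probe sets did not overlap, this one and Tfpi, beside 23.7% of all probe sets tested. Tfpi was the 1 of the 6 past the threshold, beside 3.24% of all probe sets, a count that its choice helped to fix.

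Against NTG, Thbd probe set 104601_at differed by -0.24 ± 0.238 in caPI3K and by 0.16 ± 0.238 in dnPI3K (limma, adjusted p = 0.814, fold interval 0.776 to 1.61). Without NTG replicate 3 these values were 0.01 and 0.41. The second Thbd probe set, 162023_f_at, is of a type whose probes share sequence within a gene family. It read 448.3, 427.9 and 517.1 in NTG, 586.4, 423.9 and 388.7 in caPI3K, and 553.3, 405.5 and 416.2 in dnPI3K, with all groups overlapping and replicate 1 the highest in both transgenic groups. Its differences from NTG were -0.01 ± 0.195 in caPI3K and -0.03 ± 0.195 in dnPI3K (limma, adjusted p = 0.967, fold interval 0.727 to 1.32).

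Procr, the protein C receptor gene, read close to the floor on some arrays. Probe set 98018_at read 129.1, 113.9 and 102.0 in NTG, 61.53, 106.4 and 71.29 in caPI3K, and 9.989, 122.8 and 75.59 in dnPI3K. The group means of 79.73 ± 23.6 in caPI3K and 69.44 ± 56.6 in dnPI3K lay under that of NTG (115.0 ± 13.6), and each transgenic group overlapped NTG through 1 array. The dnPI3K replicate 1 array lay below the floor, so that its value entered the fit as 35.34. The difference between dnPI3K and NTG was -0.73 ± 0.429 (limma, adjusted p = 0.481), with a fold interval of 0.313 to 1.16, and without that array it was -0.25. The difference of caPI3K from NTG was -0.56 ± 0.429. With the floor at the 5th percentile the difference between dnPI3K and NTG was -1.34 and that between caPI3K and NTG remained -0.56.

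Plat, the gene for tissue plasminogen activator, had overlapping levels in the 3 groups. Probe set 93981_at read 857.1, 726.5 and 768.3 in NTG, 1011, 673.5 and 677.4 in caPI3K, and 687.8, 682.2 and 775.4 in dnPI3K. All groups overlapped, and caPI3K replicate 1 was the highest array. Its differences from NTG were -0.02 ± 0.164 in caPI3K and -0.13 ± 0.164 in dnPI3K (limma, adjusted p = 0.778, fold interval 0.710 to 1.17).

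**Figure D4:**
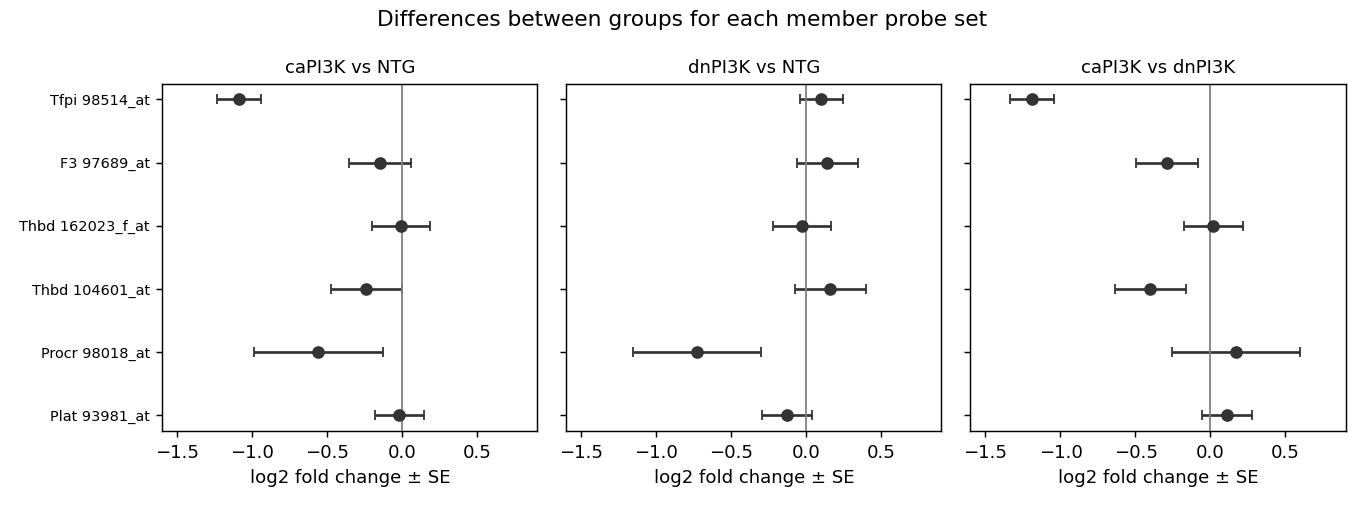
Log2 fold change (± moderated SE) of each of the 6 member probe sets in the 3 comparisons, with 3 arrays per group. Tfpi lies at -1.09 and -1.19 in the comparisons that involve caPI3K and at 0.10 between dnPI3K and NTG, and Procr has the widest bars (0.429).

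Over the 9 arrays the correlation with Tfpi, as a description, was 0.70 for Thbd probe set 104601_at, 0.46 for F3, 0.10 for Procr, 0.01 for Thbd probe set 162023_f_at and -0.20 for Plat. In caPI3K against NTG, the contrast that chose Tfpi, all 6 probe sets lay below 0 (median -0.20), beside 3740 of all 7484 genes. Of the 6, Thbd probe set 162023_f_at (-0.01 ± 0.195) and Plat (-0.02 ± 0.164) lay near 0. With 1 array left out, Thbd 162023_f_at, Plat and Thbd 104601_at reached values above 0 (up to 0.11, 0.08 and 0.01). No joint fall is therefore read from these signs. Between dnPI3K and NTG 3 lay above 0 and 3 below, beside 3816 and 3668 of all genes. The median over all 7484 genes was 0.00 in the former comparison and 0.01 in the latter. In the comparison of caPI3K with NTG the groups of 1 of the 6 did not overlap (Tfpi), beside 12.1% of all probe sets, and between dnPI3K and NTG those of 0 of the 6, beside 19.1%.

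The genes whose pattern over the 9 arrays was most like that of Tfpi were taken from 4225 genes of at least median brightness. They were Sat1, an acetyltransferase of polyamine breakdown (Pearson r = 0.974), the kynurenine aminotransferase gene Kyat3 (0.938), the folliculin gene Flcn (0.935), Pura, which encodes a nucleic acid binding protein (0.927), and Nnt, the mitochondrial transhydrogenase (0.921). All 5 had their lowest mean in caPI3K. Sat1 read 460.3 ± 34.0 in caPI3K, 652.6 ± 109 in NTG and 686.9 ± 17.2 in dnPI3K (SD, n = 3 each), and Kyat3 read 175.7 ± 15.7, 305.3 ± 18.8 and 307.2 ± 22.0. The points share their arrays, and a gene low in 1 group of 3 gives a high r by that alone.

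For the other members the closest genes were Srp14 (r = 0.954) and Ndufc1 (0.894) for F3, and Atg5 (0.929) and Agpat1 (0.928) for Thbd by its brighter probe set. They were Slc48a1 (0.940) and Ampd3 (0.888) for Procr and Abcb10 (0.889) and Litaf (0.866) for Plat. None of these 8 is on a coagulation list used here.

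The nearest protein-coding genes on either side of Tfpi in GRCm38.p6 are Calcrl and Ctnnd1. Calcrl, a receptor of the calcitonin family, read 58.28 in caPI3K and 49.67 in NTG, near the floor, with a log2 fold change of 0.21 ± 0.335. The catenin gene Ctnnd1 read 3327 and 3543 (-0.08 ± 0.129), so that neither was at a level as low in caPI3K, relative to NTG, as Tfpi. Both were chosen by map order after the values of Tfpi were known.

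Of the other genes of clotting and fibrinolysis, none passed between caPI3K and NTG. Over 6 lists (coagulation factors, coagulation inhibitors, fibrinolysis, protease-activated receptors and their signalling, endothelial antithrombotic genes and FoxO targets), 67 genes were tested and 0 passed in that comparison, where 0.107% of all genes did. At that share a count of 0 among 67 shows little. No listed inhibitor (10 tested) or fibrinolysis gene (9 tested) passed in any of the 3 comparisons. With 0.107%, 2.22% and 3.46% of all genes passing in these, such counts show little too. Between dnPI3K and NTG 2 of the 67 passed, 1 higher and 1 lower, which is 2.99% beside 2.22% of all genes. Between caPI3K and dnPI3K the same 2 genes passed, beside 3.46% of all genes.

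Gna13, which encodes a G protein subunit that acts below thrombin receptors, was one of them. It read 601.5, 737.7 and 558.7 in NTG, 696.0, 643.8 and 673.7 in caPI3K, and 389.9, 252.0 and 282.1 in dnPI3K. Every dnPI3K array lay below every other array, and the fall from NTG was -1.05 ± 0.182 (limma, adjusted p = 0.0169, and 0.00900 to 0.0799 over the alternatives). It lost the call without dnPI3K replicate 2 (-0.92), dnPI3K replicate 3 (-1.0) or NTG replicate 2 (-0.94). The call was also lost with no filter on dim probe sets (limma, adjusted p = 0.0509), with no intensity trend (0.0508) and with only the 2 groups compared (0.0799). A second, dimmer Gna13 probe set changed by 0.11 (limma, adjusted p = 0.948). Between caPI3K and dnPI3K the first differed by 1.15 ± 0.182 (limma, adjusted p = 0.00731).

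The other was the FoxO target Irs2, an insulin receptor substrate, at 138.2 ± 27.1 in NTG, 61.64 ± 25.9 in caPI3K and 410.8 ± 74.9 in dnPI3K (SD, n = 3 each). It rose in dnPI3K by 1.58 ± 0.331 (limma, adjusted p = 0.0400) and differed by -2.80 ± 0.331 between caPI3K and dnPI3K (limma, adjusted p = 0.00138). The call against NTG was lost without any one of 7 arrays (log2 fold change 1.41 to 1.70 over all 9), the exceptions being caPI3K replicates 2 and 3. It was also lost with a block for the series of animal numbers (1.65; limma, adjusted p = 0.0576), on the deposited values (adjusted p = 0.0555), with no filter on dim probe sets (0.0875) and with no intensity trend (0.0557). The remaining FoxO targets did not pass, among them the cell cycle inhibitor Cdkn1a at 0.76 ± 0.280 in dnPI3K, with a second probe set at -0.46, and its relative Cdkn1b at 0.65 ± 0.281. Cdkn1b read 20.88, 40.4 and 36.82 in NTG, below or near the floor, beside 41.5 to 84.96 in dnPI3K. For the binding protein gene Igfbp1, 2 of the 3 dnPI3K arrays lay under the floor and the third read 52.63, beside 56.53 to 95.04 in NTG, and a second probe set was at 0.16. The median of the 14 tested FoxO targets was 0.01 in caPI3K and 0.09 in dnPI3K against NTG, beside 0.00 and 0.01 over all genes.

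Many coagulation factors are made mainly in liver, and several of their genes were dim here. Of 20 listed, 12 were tested, with a median of 0.35 in dnPI3K against NTG, 10 above 0 and 2 below. None of the 12 passed there, beside 2.22% of all genes. The fibrinogen chain gene Fga was at 0.87 ± 0.323 (limma, adjusted p = 0.234), with NTG arrays at 16.76 to 57.08 and dnPI3K arrays at 53.2 to 109.2. Vkorc1, which recycles the vitamin K used by the factors, was at 0.30 ± 0.125, and F7, the protease that tissue factor binds, at -0.37 ± 0.128 with a second probe set at 0.24. The summed intensity of 5 hepatocyte markers was 390.6 to 404.2 in NTG, 480.4 to 533.6 in dnPI3K and 355.6 to 575.6 in caPI3K, a range that encloses both others. Several of these markers read near the floor, albumin (Alb) of the same list did not rise above it often enough to be tested, and their part was not tested.

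Among 10 tested coagulation inhibitors the median was 0.00 in caPI3K and 0.06 in dnPI3K against NTG. The protein C gene Proc was at -0.71 ± 0.264 in dnPI3K (limma, adjusted p = 0.230), with a dimmer probe set at 0.16. Heparin cofactor (Serpind1) lay below the floor on all 3 dnPI3K arrays (9.689 to 34.02) and on 1 NTG array, with NTG spread from 19.18 to 153.4, so no fold is given. Annexin A5 (Anxa5), which shields anionic membrane, was at -0.21 ± 0.118. Among 9 fibrinolysis genes the medians were 0.09 and -0.04. The clearance receptor Lrp1 was at 0.35 ± 0.125 in dnPI3K (limma, adjusted p = 0.215), and the plasminogen-binding partners Anxa2 and S100a10 at 0.15 ± 0.110 and -0.26 ± 0.176.

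Among receptors of clotting proteases, the thrombin receptor gene F2r was brightest on a probe set at 0.39 ± 0.165 in caPI3K and -0.19 ± 0.165 in dnPI3K against NTG, and its dimmer probe sets disagreed with it in sign in 2 of the 3 comparisons each. F2rl3 was at -0.50 ± 0.423 and the exchange factor gene Arhgef1 at 0.66 ± 0.302 in dnPI3K. The NTG arrays of F2rl3 read 136.8, 61.1 and 15.73, the last below the floor, which limits what its difference can show. The 16 tested antithrombotic and heparan sulphate genes had medians of 0.02 and 0.07. The heparan sulphate carriers Sdc2 and Sdc3 were at 0.32 ± 0.168 and -0.55 ± 0.316 in dnPI3K, and the matrix protein gene Thbs2 at -0.45 ± 0.263.

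**Figure D5:**
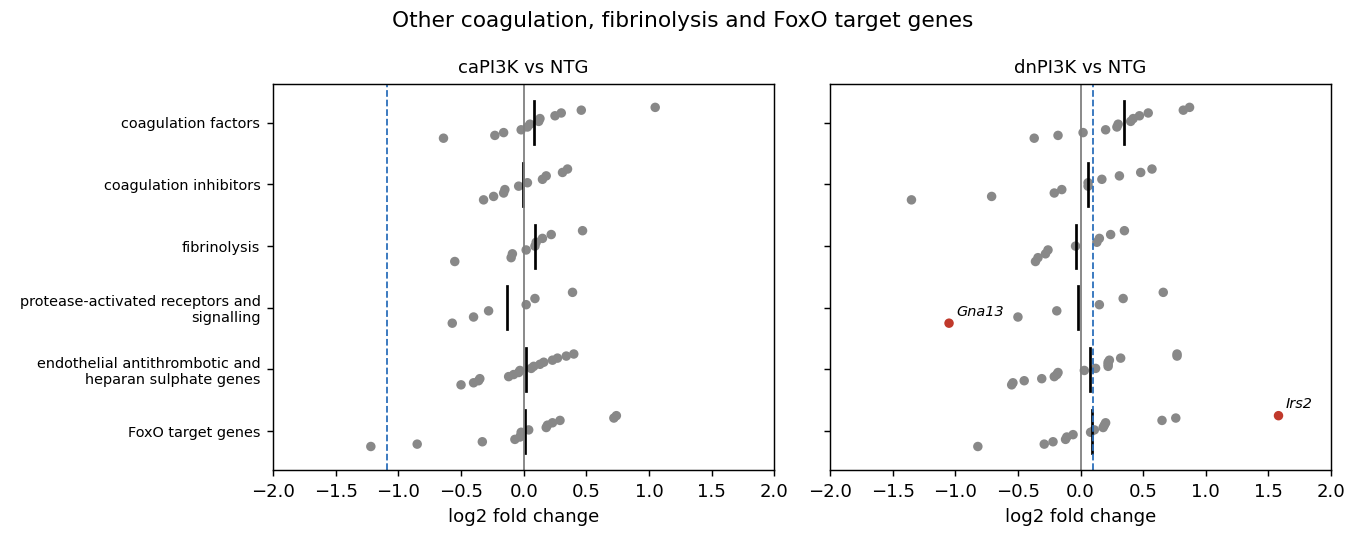
Log2 fold change of the tested genes of 6 lists, by brightest probe set, in caPI3K and dnPI3K against NTG. Points are genes (red and named where adjusted p is under 0.05), black bars the list medians and the dashed line the value of Tfpi, which lies at -1.09 in the first panel and 0.10 in the second.

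All 9 arrays had the same 2% trimmed mean (500.4) before normalization. The dnPI3K arrays stood apart from the rest in control probe sets that read no heart messenger RNA. For 18S ribosomal RNA the 3′ control averaged 536.1 ± 118 on NTG, 519.6 ± 38.1 on caPI3K and 6224 ± 2700 on dnPI3K arrays (SD, n = 3 each). The geometric mean of the spike-in controls was 2988 ± 369, 3023 ± 272 and 1790 ± 212 in the same order. The dnPI3K animals belong to the number series 1200 and 1400 and the others to 2800 and 3100, so dnPI3K genotype and any difference in handling cannot be told apart. In these controls caPI3K and NTG, the groups between which Tfpi differed, overlapped. The summed intensity of 9 tested cardiomyocyte markers lay between 231804 and 261350 on every array. Most of these markers are among the brightest probe sets, and quantile normalization gives every array the same set of values. Myh6 and Myl2, for example, both read 36908 ± 2070 in NTG (SD, n = 3). The narrow range of the sum is thus partly set by the normalization and cannot show equal cardiomyocyte content. Of the 9, Mybpc3 passed as higher in dnPI3K than in NTG (0.46 ± 0.0913; limma, adjusted p = 0.0336), beside 2.22% of all genes. It also passed as lower in caPI3K than in dnPI3K (-0.49 ± 0.0913; limma, adjusted p = 0.0164), beside 3.46%. The summed intensity of 6 atrial markers was 2855 to 22739 in NTG, with replicate 3 the lowest, 3214 to 14832 in caPI3K and 9499 to 12022 in dnPI3K. Of the 6, the atrial myosin light chain genes Myl4 (-5.48 ± 1.15; limma, adjusted p = 0.0400) and Myl7 (-5.19 ± 1.16; limma, adjusted p = 0.0476) passed as lower in dnPI3K than in NTG, beside 2.22% of all genes. Nppa, a natriuretic peptide gene in the same sum, read 9612 in dnPI3K and 4046 in NTG and did not pass there (1.48 ± 0.461; limma, adjusted p = 0.148). It did pass as lower in caPI3K than in dnPI3K (-2.22 ± 0.461; limma, adjusted p = 0.0282), beside 3.46%. Nppa made up most of the atrial sum in dnPI3K (mean 10538), so the overlap of these sums says little of the other atrial genes. The part of these markers in the results was not tested.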

How the data were processed

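The deposited table gives 1 intensity per probe set and array on a linear scale. The sources used here do not say how the authors computed these intensity values. Per the labels the scanner's photomultiplier was set to 10%, and equal trimmed means show that the deposited values had been scaled to a common level. Symbols came from the platform annotation, which gives 1 symbol to 10855 probe sets, several to 396 and does not list 1237. Groups and animal numbers were read from the sample titles, and replicates numbered in deposition order, which pairs no animals. The number of arrays limits the precision.

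The 9 arrays were quantile normalized, given a floor of 35.34 (20th percentile), and log2 was taken. Probe sets above the floor on at least 3 arrays were tested (10645, with 7484 genes represented by their brightest probe set), without the 66 controls. Levels quoted are normalized intensities before the floor. All arrays entered 1 limma fit (version 3.58.1, R 4.3.3; lmFit, contrasts.fit, eBayes with an intensity trend), with Benjamini-Hochberg adjustment over all probe sets tested, two-sided, at 0.05. Intervals are 95% from the moderated SE. The procedure was tested on simulated data.

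The members and gene lists were chosen with earlier results of these data known. Named genes are the members, list genes that passed in any comparison, up to 3 others of each list with the smallest p between dnPI3K and NTG, and the genes most like a member (5 for Tfpi, 2 for each other). Genes named beyond this rule (cell type markers and neighbours of Tfpi) were chosen with their values known. Promoter windows come from RefSeq (GRCm38.p6).

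Alternatives changed 1 choice at a time: normalization, floor, filter, moderation, array weights, the groups fitted, a block for the series of animal numbers, and the omission of each array.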

Additional observations from a re-analysis of the deposited data

Results flagged for a closer look

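Tfpi differed between the effects of the transgenes. Its caPI3K arrays all lay below the NTG arrays, its dnPI3K arrays overlapped them, and the difference between caPI3K and dnPI3K was -1.19 on the log2 scale, with 460.2 ± 36.5 against 1047 ± 17.6 (SD, n = 3 each). Since Tfpi was chosen from its caPI3K values, no test is given for this difference.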

How the results depend on the processing

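Over 20 alternatives the log2 fold change of Tfpi lay between -1.19 and -0.93 in caPI3K against NTG, -1.30 and -1.14 in caPI3K against dnPI3K and 0.00 and 0.26 in dnPI3K against NTG. With 1 array left out these ranges were -1.19 to -0.93, -1.25 to -1.14 and 0.00 to 0.26. The count of member probe sets past the threshold in caPI3K against NTG was 1 as reported, 0 with no filter on dim probe sets, 0 with no intensity trend, 0 with only the 2 groups compared and 0 to 1 with 1 array left out, where the call was kept only without NTG replicate 1. It remained 1 in caPI3K against dnPI3K and 0 in dnPI3K against NTG under all 20. The count over all probe sets in caPI3K against NTG was 9 as reported and 0 to 20 over the alternatives.

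The count of listed pathway genes in dnPI3K against NTG, 2 as reported, was 0 with no filter or no intensity trend, 1 with the deposited values, with only probe sets above the median, with a block for the animal number series or with only the 2 groups compared, and 0 to 2 with 1 array left out. Fewer samples enter the fits with an array left out, and more probe sets are adjusted for without the filter. Irs2 was not among the probe sets above the median and so was not tested there, while Gna13 kept its call (limma, adjusted p = 0.009). Apart from the absence of Irs2 there, the cause of a changed count was not tested, also with an array left out or without the filter. In caPI3K against dnPI3K the count of listed genes was 2 as reported. It was 3 with the deposited values, with array weights or with the block for the animal number series, and 4 with the floor at the 40th percentile. In caPI3K against NTG it was 0 throughout.

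Some differences that had not passed turned sign, and they passed under none of the 20 alternatives. With 1 array left out, the ranges in dnPI3K against NTG were -0.03 to 0.25 for F3 and -0.17 to 0.05 for Thbd 162023_f_at. In caPI3K against NTG, where no test is given, they were -0.19 to 0.11 for Thbd 162023_f_at, -0.38 to 0.01 for Thbd 104601_at and -0.21 to 0.08 for Plat. In caPI3K against dnPI3K they were -0.16 to 0.16 for Thbd 162023_f_at, -0.08 to 0.21 for Plat and -0.31 to 0.59 for Procr. Thbd 162023_f_at was also at 0.02 with each array scaled to the same median in dnPI3K against NTG, at 0.03 without dnPI3K replicate 3, and at -0.06 and -0.05 in caPI3K against dnPI3K without dnPI3K replicate 2 or 3. Procr was at -0.04 with the floor at the 40th percentile and -0.06 without caPI3K replicate 2, and at that floor it differed by -0.07 between caPI3K and NTG and by -0.03 between dnPI3K and NTG. With the floor at the 5th percentile it differed by -1.34 between dnPI3K and NTG and by 0.78 between caPI3K and dnPI3K. Its low signal over background limits what can be said of it. Procr was not tested among probe sets above the median. No paired analysis was possible by replicate number, because these numbers follow deposition order. Animals of caPI3K and NTG share the number series 2800 and 3100, and with the series as a block the difference of Tfpi between them was -1.09.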
